A study of Homo sapiens with 18 samples.

Results

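The 10 genes described here encode the main RNA-binding proteins that set how long cytokine mRNAs last. They are ZFP36, ZFP36L1 and ZFP36L2, ZC3H12A, ZC3H12C and ZC3H12D, RC3H1 and RC3H2, ELAVL1 and KHSRP. Each was found by its symbol in GENCODE 29 among the 57500 Ensembl genes of the deposited count tables. All 10 were found once, and all 10 passed the filter on low counts in every comparison.

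RNA was sequenced from 3 stable lines of THP-1, a human monocytic leukaemia line, and each line had been transduced with lentiviral particles that carry a short hairpin RNA. The shNT line carries a hairpin without a target, and the other lines carry a hairpin against NR4A2 (shNR4A2) or NR4A3 (shNR4A3), orphan nuclear receptors that LPS induces. Each target was lowered in 1 line, so an effect of the hairpin cannot be told apart from a difference between lines. Cells rested in buffered medium and then received no LPS (control) or 2.5 μg/ml LPS for 2 h, with 3 libraries in each of the 6 groups and 18 in all. The total count on genes ran from 16171161 to 23929138 per library (median 19639071). Replicates are numbered 1 to 3 and the study's legends call them independent experiments.

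Cytokine mRNAs carry short signals in the 3′ untranslated region that call in decay factors. ZFP36 (tristetraprolin) and its relatives bind AU-rich elements and recruit the CCR4-NOT complex, which removes the poly(A) tail. ZC3H12A (regnase-1) and its relatives are endonucleases that cut stem-loops, and the roquins RC3H1 and RC3H2 bind similar stem-loops. KHSRP also promotes decay through AU-rich elements, whereas ELAVL1 (HuR) binds such elements and stabilises the mRNA.

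Several of the decay factors carry, in their own mRNA, the letters of the element that ZFP36 proteins bind. The core heptamer TATTTAT was searched in the mRNA sequence, 5′ to 3′, of the longest 3′ untranslated region of each gene. The nonamer TTATTTATT, which contains the heptamer, was searched as well. Regions came from the basic annotation of GENCODE 29, without transcripts whose mRNA end is marked as incomplete. The heptamer was found in 30.9% of 19111 protein-coding genes and the nonamer in 8.16%. Among the decay factors, 7 of 10 held the heptamer and 6 of 10 the nonamer, and among 23 cytokine and related targets 19 and 13 did. ZFP36, ZFP36L1 and ZFP36L2 each held 3 heptamers, in untranslated regions of 713, 2828 and 1917 bases. ZC3H12C, RC3H2 and ELAVL1 each held 5 heptamers, RC3H1 held 2, and ZC3H12A, ZC3H12D and KHSRP held none. Long untranslated regions hold the heptamer more often than short ones. Among regions within 20% of the length of each gene's own, the heptamer was in 19.3% for ZFP36, in 38.9% for ZFP36L2 and in 52.6% to 77.1% for ZFP36L1, ZC3H12C, RC3H1, RC3H2 and ELAVL1. Regions with at least as many heptamers made up 1.27% for ZFP36, 8.61% for ZFP36L1, 4.49% for ZFP36L2 and 8.21% for ZC3H12C, and 4.79%, 3.96% and 53.7% for RC3H2, ELAVL1 and RC3H1. For the nonamer the shares among regions of like length were 4.99%, 14.05% and 8.22% for ZFP36, ZFP36L1 and ZFP36L2, and 23.5%, 21.4% and 21.3% for ZC3H12C, RC3H2 and ELAVL1. A match describes the letters only. One window from each of the ZFP36 genes and from ZC3H12C is shown, with the nonamer in capitals, beside the window of TNF, the best known target of ZFP36, in which the overlapping nonamers fill all 30 bases (GRCh38, each 5′ to 3′ on the gene's strand).
ZFP36, chr19:39409195-39409224, plus strand: ttatgacgactTTATTTATTctaatatgat
ZFP36L1, chr14:68788077-68788106, minus strand: aaactgttggaTTATTTATTttagaaattc
ZFP36L2, chr2:43223448-43223477, minus strand: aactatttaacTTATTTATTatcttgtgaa
ZC3H12C, chr11:110170156-110170185, plus strand: gtttacacccaTTATTTATTagagatattt
TNF, chr6:31578000-31578029, plus strand: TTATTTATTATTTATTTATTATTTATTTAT

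The hairpin targets were examined first. Levels are given as RPKM, in which the count of a gene is divided by its exon length and by the size of the library after TMM scaling over the 18 libraries. NR4A2 was at 1.07, 0.746 and 0.990 RPKM in the shNT control libraries and at 0.466, 0.422 and 0.592 in the shNR4A2 control libraries. With LPS it was at 18.4, 21.3 and 15.6 RPKM in shNT cells and at 6.57, 8.09 and 4.62 in shNR4A2 cells. The groups did not overlap, and NR4A2 was lower in shNR4A2 cells by edgeR both without LPS (log2 fold change -0.91 ± 0.23 SE, adjusted p = 0.0359) and with LPS (-1.52 ± 0.19, adjusted p = 0.00265). Without LPS the call was lost when any of 4 of the 6 libraries was left out (shNT control replicate 1 or 3, shNR4A2 control replicate 1 or 2, adjusted p from 0.0728 to 0.124). NR4A3 was at 0.143, 0.182 and 0.124 RPKM in shNT control libraries against 0.0429, 0.0272 and 0.00833 in shNR4A3 control libraries, where it had 9 counts in all. With LPS it was at 9.16, 9.22 and 9.72 RPKM against 5.46, 5.29 and 5.16. NR4A3 was lower in shNR4A3 cells without LPS (-2.47 ± 0.49, adjusted p = 0.00767) and with LPS (-0.82 ± 0.08, adjusted p = 0.000556), and the groups did not overlap.

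In unstimulated shNT cells the decay factors spanned a wide range of abundance. ZFP36L2 was the most abundant at 128 ± 6.57 RPKM (SD, n = 3), followed by KHSRP at 109 ± 2.20, ZFP36 at 40.7 ± 4.90 and ELAVL1 at 16.5 ± 0.462. RC3H2 (4.30 ± 0.660), ZC3H12A (4.06 ± 0.798), RC3H1 (3.57 ± 0.939) and ZFP36L1 (2.29 ± 0.710) followed in that order. The libraries of neighbours in that order overlapped among these 4 genes, whereas the libraries of the first 4 did not overlap those of the next gene in the order. ZC3H12C (1.51 ± 0.181) and ZC3H12D (0.983 ± 0.165) were the least abundant. After 2 h of LPS the order in shNT cells began with ZC3H12A, then KHSRP, ZFP36 and ZFP36L2, each without overlap with the next. ELAVL1 and ZC3H12C overlapped in the fifth and sixth places, and ZC3H12D was again last. In both knockdown lines the first 4 places held the same genes as in shNT cells, in each state and in the same order, although KHSRP and ZFP36 overlapped in shNR4A3 cells with LPS. ZC3H12C was last in shNR4A3 control cells, without overlap with ZC3H12D, whereas these genes overlapped in shNR4A2 control cells.

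**Figure D1:**
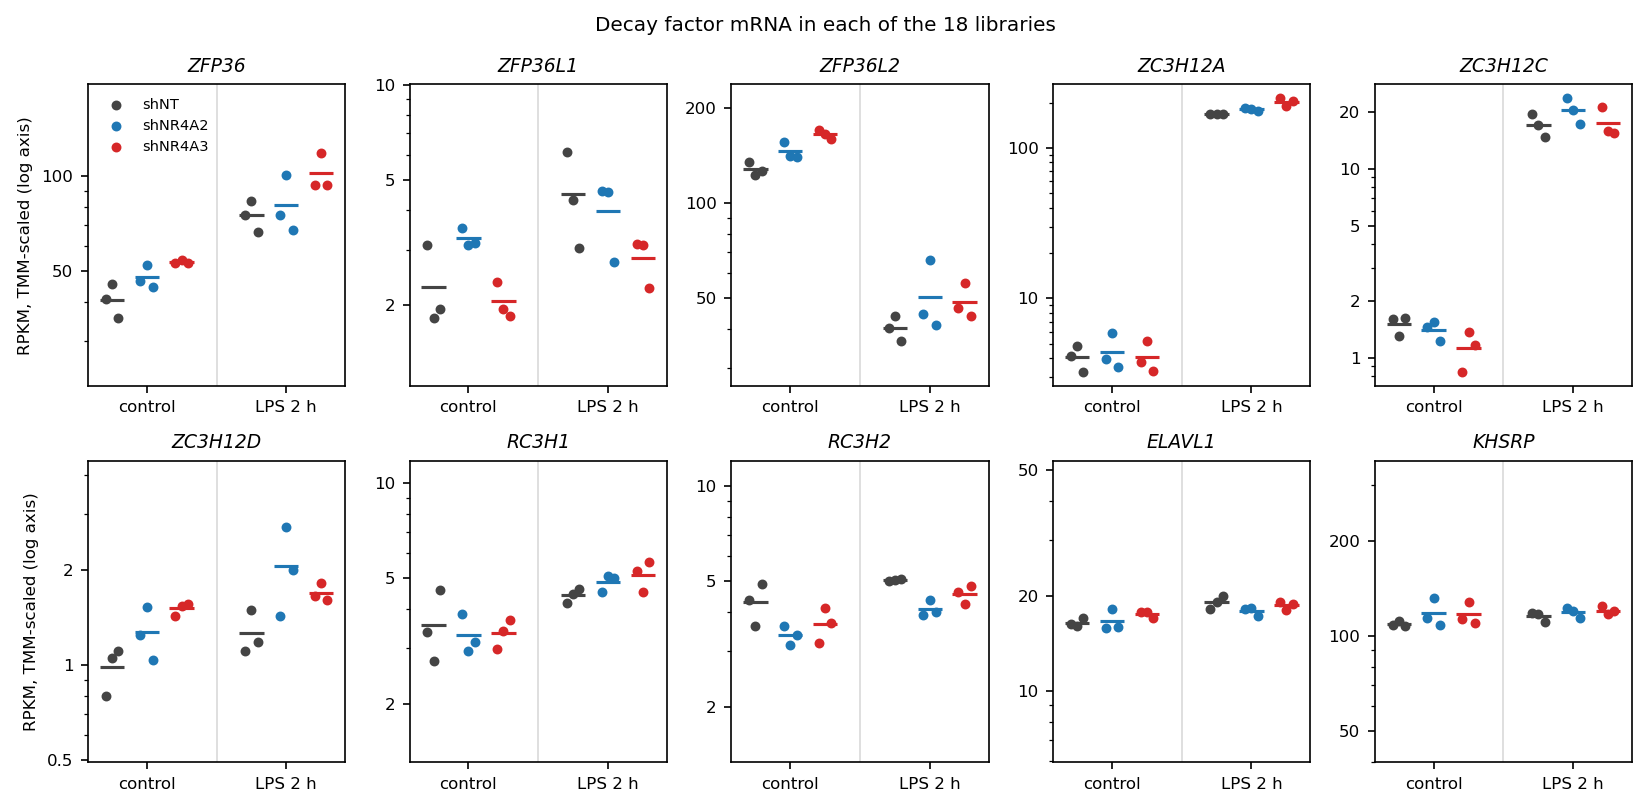
RPKM (TMM-scaled, log axis) of each decay factor in each of the 18 libraries, without and with LPS, coloured by line, with 1 point per library. ZC3H12A and ZC3H12C lie far higher with LPS in all 3 lines, ZFP36L2 lies lower, and ELAVL1 and KHSRP lie near the same height in all 6 groups.

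To see how a 2 h LPS stimulus affects the decay factors, LPS libraries were compared with control libraries within each line. The clearest changes were in 4 genes, which passed the test in every line: ZC3H12A, ZC3H12C and ZFP36 rose and ZFP36L2 fell. Their groups did not overlap in any line. On GRCh38 these genes span chr1:37474552-37484379 (ZC3H12A), chr11:110093361-110171841 (ZC3H12C), chr19:39406813-39409412 (ZFP36) and chr2:43222402-43226609 (ZFP36L2, minus strand, the others plus), and reads on their merged exons were counted. The test was the quasi-likelihood F test of edgeR, with Benjamini-Hochberg adjustment over all genes tested. In shNT cells 5 of 10 decay factors passed it (4 higher, 1 lower), in shNR4A2 cells 6 (5 higher, 1 lower) and in shNR4A3 cells 5 (4 higher, 1 lower). Among all genes tested 24.9% passed in shNT cells (11.6% higher, 13.3% lower), 19.3% in shNR4A2 cells (9.23% and 10.1%) and 28.1% in shNR4A3 cells (13.1% and 15%). The decay factors had a median log2 fold change of 0.34, 0.42 and 0.39, compared with -0.01, -0.02 and -0.01 over all genes. Scaling by total counts alone lowered the median of all genes to -0.19, -0.23 and -0.21 and changed the split of called genes. For shNT cells the 1820 genes called higher and 2089 called lower became 1109 and 4158. In shNR4A2 cells 1455 and 1595 became 1009 and 3528, and in shNR4A3 cells 2007 and 2305 became 1317 and 4494. The directions of ZC3H12A, ZC3H12C, ZFP36 and ZFP36L2 were the same with that scaling in every line. RC3H2 also had no overlap between groups in any line, with smaller changes that did not pass this test. Lack of overlap alone thus does not mark out the 4 genes, and the share of all genes without overlap was not counted. Because these are bulk samples, a change in the RNA of every cell and a change in the number of cells that express a gene cannot be told apart.

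Among the ZFP36 genes, ZFP36 and ZFP36L2 moved in opposite directions. ZFP36, whose own mRNA is an early LPS response gene, was at 40.9, 45.5 and 35.7 RPKM in the shNT control libraries and at 75.2, 83.6 and 66.7 with LPS. In shNR4A2 cells it was at 46.5, 52.4 and 44.7 without LPS and at 75.2, 101 and 67.8 with LPS. In shNR4A3 cells it was at 53.1, 54.3 and 53.0 without LPS and at 93.8, 119 and 94.0 with LPS. In each line the lowest LPS library exceeded the highest control library, and replicate 2 was the highest LPS library in each line. The rise was 1.85-fold in shNT cells (log2 fold change 0.89 ± 0.11 SE, adjusted p = 3.12e-05), 1.70-fold in shNR4A2 cells (0.76 ± 0.15, adjusted p = 0.00302) and 1.91-fold in shNR4A3 cells (0.94 ± 0.10, adjusted p = 6.22e-05), by edgeR.

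ZFP36L2, the relative that is most abundant at rest and is known for its part in lymphocyte and blood stem cell development, fell sharply. Its RPKM was 135, 123 and 127 in the shNT control libraries and 40.3, 44.1 and 36.7 with LPS. In shNR4A2 cells it was 157, 141 and 140.4 without LPS and 44.7, 66.1 and 41.1 with LPS. In shNR4A3 cells it was 171, 166 and 159.7 without LPS and 46.8, 55.8 and 44.0 with LPS. No group overlapped its counterpart in the same line. The level fell 3.18-fold in shNT cells (-1.67 ± 0.09, adjusted p = 5.17e-09), 2.89-fold in shNR4A2 cells (-1.53 ± 0.17, adjusted p = 2.99e-05) and 3.38-fold in shNR4A3 cells (-1.76 ± 0.10, adjusted p = 3.64e-07). Among all genes tested, 3.14% passed the test at 2-fold or more lower in shNT cells.

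ZFP36L1, which acts on many of the same mRNAs as ZFP36, was low in all libraries and its replicates spread widely. It was at 3.10, 1.82 and 1.94 RPKM in shNT control libraries and at 6.12, 4.32 and 3.03 with LPS. The groups overlapped, and the rise passed the test in shNT cells (log2 fold change 0.97 ± 0.24, adjusted p = 0.00788). That call was lost with DESeq2 (adjusted p = 0.0533) and without shNT control replicate 2 (adjusted p = 0.0505). ZFP36L1 did not pass in shNR4A2 cells (0.28 ± 0.19, adjusted p = 0.346) or in shNR4A3 cells (0.46 ± 0.17, adjusted p = 0.0591), although in shNR4A3 cells it passed (0.46, adjusted p = 0.0115) in the fit with a block for the replicate number.

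The opposite moves of ZFP36 and ZFP36L2 changed which of the family's mRNAs was the most abundant per length. Per length, ZFP36 made up 23.8% ± 2.67 (SD, n = 3) of the summed RPKM of the 3 genes in shNT control cells and 62.6% ± 0.753 with LPS. Its share was 24.3% ± 2.10 and 60.0% ± 0.98 in shNR4A2 cells and 24.2% ± 0.67 and 66.4% ± 0.95 in shNR4A3 cells. ZFP36L2 made up 74.9% and 33.7% of the sum in shNT cells, without and with LPS. The share of ZFP36 did not overlap between control and LPS in any line (p = 0.1 in a 2-sided exact permutation test, which cannot go lower with 3 libraries a group). The summed level of the 3 genes was lower with LPS, at 171 ± 7.6 and 119.98 ± 13 RPKM in shNT cells, 197 and 136 in shNR4A2 cells, and 221 and 154 in shNR4A3 cells. Counted without regard to length, the rise in the share of ZFP36 in shNT cells was 32.3 percentage points in place of 38.9.

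**Figure D2:**
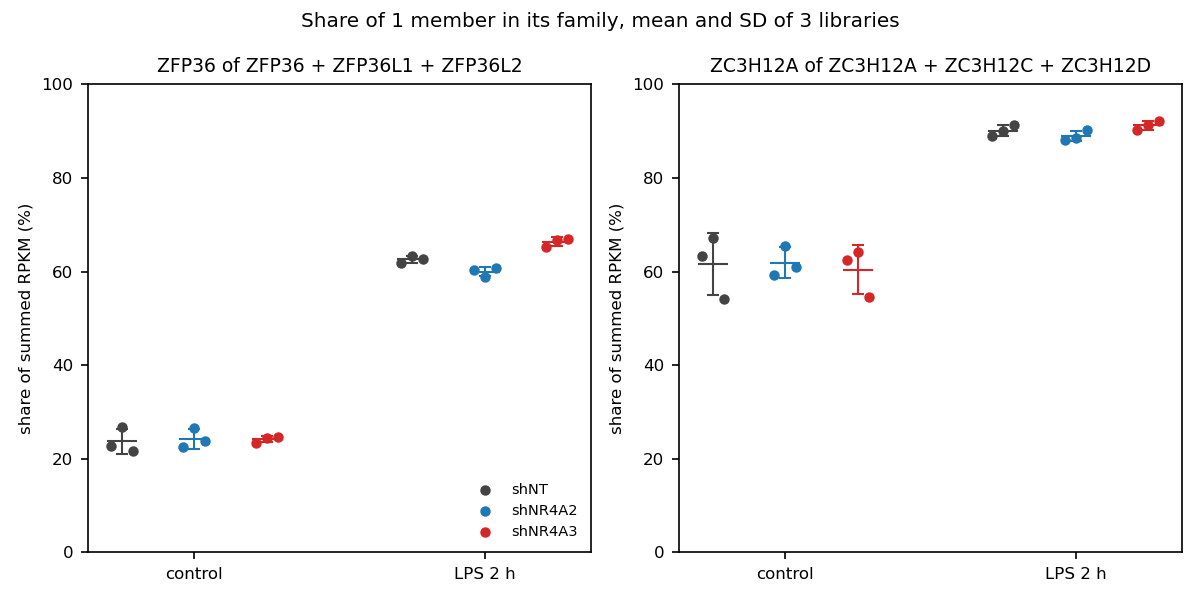
Share of ZFP36 in the summed RPKM of ZFP36, ZFP36L1 and ZFP36L2 (left) and of ZC3H12A in that of ZC3H12A, ZC3H12C and ZC3H12D (right), in percent, without and with LPS, as the mean and SD of 3 libraries per line. The mean share of ZFP36 is between 23.8% and 24.3% without LPS and between 60.0% and 66.4% with LPS, and that of ZC3H12A is between 60.4% and 61.9% and between 89.0% and 91.3%.

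Of the regnases, ZC3H12A rose the most. ZC3H12A cuts mRNAs such as that of IL6 and is itself induced by Toll-like receptor signals. Its RPKM was 4.14, 4.82 and 3.23 in shNT control libraries and 167, 169 and 169 with LPS. In shNR4A2 cells it was 3.93, 5.85 and 3.52 without LPS and 185, 181 and 177 with LPS. In shNR4A3 cells it was 3.79, 5.22 and 3.27 without LPS and 214, 189 and 203 with LPS. Every LPS library lay far above every control library of its line. The rise was 41.6-fold in shNT cells (log2 fold change 5.38 ± 0.13 SE, adjusted p = 1.07e-12), 41.0-fold in shNR4A2 cells (5.36 ± 0.19, adjusted p = 1.27e-09) and 49.6-fold in shNR4A3 cells (5.63 ± 0.16, adjusted p = 1.34e-09). At 2-fold or more higher, 4.42% of all genes passed in shNT cells.

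ZC3H12C (regnase-3), a relative expressed in macrophages, rose from a lower level. It was at 1.60, 1.30 and 1.62 RPKM in shNT control libraries and at 19.5, 17.2 and 14.8 with LPS. In shNR4A2 cells it was at 1.45, 1.55 and 1.22 without LPS and at 23.7, 20.6 and 17.2 with LPS. In shNR4A3 cells it was at 0.836, 1.37 and 1.17 without LPS and at 21.3, 15.9 and 15.5 with LPS. The groups were far apart in each line, and replicate 1 was the highest LPS library in each. The rise was 11.4-fold (3.51 ± 0.13, adjusted p = 7.13e-11), 14.5-fold (3.86 ± 0.16, adjusted p = 4.13e-09) and 15.7-fold (3.97 ± 0.18, adjusted p = 5.58e-08) in shNT, shNR4A2 and shNR4A3 cells.

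ZC3H12D (regnase-4), known mainly from lymphocytes, was the least abundant decay factor in 5 of the 6 groups, all but shNR4A3 control cells. In shNT cells it was at 0.795, 1.05 and 1.10 RPKM without LPS and at 1.11, 1.49 and 1.18 with LPS. The log2 fold change was 0.36 ± 0.17 (adjusted p = 0.146), 0.70 ± 0.23 (adjusted p = 0.0499) and 0.17 ± 0.13 (adjusted p = 0.385) in shNT, shNR4A2 and shNR4A3 cells. The call in shNR4A2 cells sat at the threshold, with overlapping groups: it was lost with scaling by total counts alone (adjusted p = 0.153) and when any library but LPS replicate 1 was left out (adjusted p up to 0.168). With the replicate number as a block, where numbers were taken to pair libraries, it was kept (0.67, adjusted p = 0.00909). Per length, ZC3H12A made up 61.6% ± 6.7 of the summed RPKM of the 3 regnases in shNT control cells and 90.1% ± 1.2 with LPS (exact permutation test, p = 0.1, the smallest possible). The summed level went from 6.55 ± 0.61 to 187 ± 1.8 RPKM.

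The roquins were low and had small differences. RC3H1, whose product binds stem-loops in TNF and ICOS mRNA, was at 3.39, 2.73 and 4.58 RPKM in shNT control libraries and at 4.19, 4.46 and 4.61 with LPS, and the groups overlapped. Its log2 fold change was 0.31 ± 0.15 (adjusted p = 0.148), 0.55 ± 0.14 (adjusted p = 0.0117) and 0.62 ± 0.12 (adjusted p = 0.00211) in shNT, shNR4A2 and shNR4A3 cells. In shNR4A2 cells the control libraries were at 3.86, 2.93 and 3.15 RPKM and the LPS libraries at 4.54, 5.10 and 5.01. In shNR4A3 cells they were at 2.99, 3.40 and 3.70 and at 5.25, 4.53 and 5.63. The groups did not overlap in the knockdown lines, where RC3H1 rose. The call in shNR4A2 cells was lost with scaling by total counts alone (adjusted p = 0.0917), and in shNT cells RC3H1 passed without control replicate 3, its highest control library (0.53 ± 0.12, adjusted p = 0.00591).

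RC3H2, the paralogue of RC3H1, had log2 fold changes of 0.23 ± 0.11, 0.27 ± 0.12 and 0.32 ± 0.11 in shNT, shNR4A2 and shNR4A3 cells, with adjusted p of 0.141, 0.150 and 0.0505. Its LPS libraries all lay above its control libraries in each line. With the replicate number as a block, RC3H2 passed in shNR4A3 cells (0.33, adjusted p = 0.0210), where 7 of 10 decay factors then passed, against 39.4% of all genes. In shNR4A2 cells 6 of 10 decay factors passed with the block, as without it, against 30.1% of all genes. In shNT cells RC3H2 passed without control replicate 3 (0.34 ± 0.11, adjusted p = 0.0421). It also passed there with the block (0.24, adjusted p = 0.0495), against 32% of all genes, although numbers were not taken to pair those libraries.

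The abundant AU-rich element binders ELAVL1 and KHSRP did not pass the test in any line. ELAVL1, the stabiliser, was at 16.3, 16.1 and 17.0 RPKM in shNT control libraries and at 18.2, 19.1 and 20.007 with LPS. The groups did not overlap, and the log2 fold change was 0.22 (95% interval 0.05 to 0.39, adjusted p = 0.0596) in shNT cells, 0.11 (-0.14 to 0.35) in shNR4A2 cells and 0.10 (-0.08 to 0.27) in shNR4A3 cells. It passed in shNT cells with DESeq2's size factors (adjusted p = 0.0468) and in 1 fit over all 18 libraries (adjusted p = 0.0463). With scaling by total counts alone the change of ELAVL1 turned negative in both knockdown lines. KHSRP, a decay-promoting factor, was at 109, 112 and 108 RPKM in shNT control libraries and at 118, 118 and 111 with LPS, with overlap. Its log2 fold change was 0.08 (-0.08 to 0.24), 0.01 (-0.25 to 0.26) and 0.04 (-0.14 to 0.23) in shNT, shNR4A2 and shNR4A3 cells, and turned negative in each line with scaling by total counts alone. A missed threshold does not show that either gene stayed the same. ELAVL1 shares 528 exon bases (7.59%) with the antisense gene AC010336.6, which had 0 counts.

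**Figure D3:**
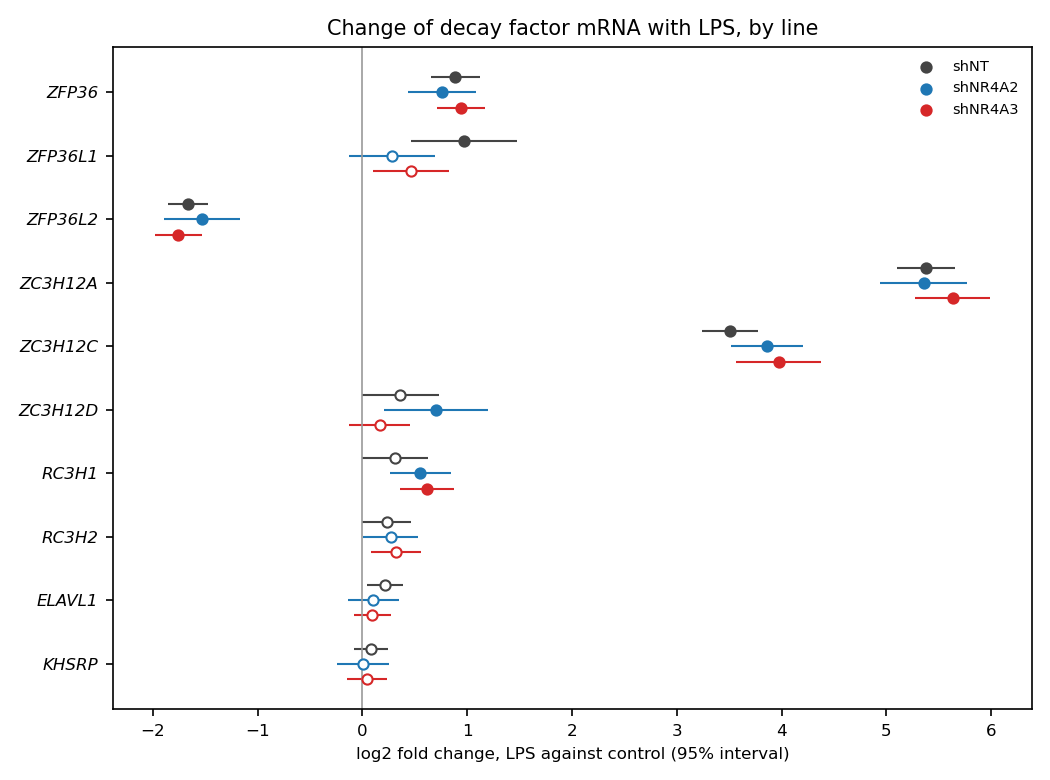
Log2 fold change of each decay factor with LPS against control, with its 95% interval, in shNT, shNR4A2 and shNR4A3 cells. Filled points passed the edgeR test at an adjusted p under 0.05 and open points did not. ZC3H12A lies at 5.38, 5.36 and 5.63, ZFP36L2 at -1.67, -1.53 and -1.76, and the 3 lines lie close together for both.

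To learn whether the LPS response of the decay factors depends on NR4A2 or NR4A3, the difference between the LPS response of each knockdown line and that of shNT cells was tested as an interaction. The responses were not shown to differ. For the decay factors, the differences in log2 fold change ran from -0.68 (ZFP36L1) to 0.36 (ZC3H12C) in shNR4A2 cells and from -0.51 (ZFP36L1) to 0.46 (ZC3H12C) in shNR4A3 cells. For ZC3H12A the difference was -0.01 (95% interval -0.48 to 0.45) in shNR4A2 cells and 0.25 (-0.18 to 0.68) in shNR4A3 cells. By edgeR 0 of 10 decay factors and 0 of all genes (0%) passed in either interaction, with 0 decay factors at an unadjusted p under 0.05. Among all genes, 365 and 824 had an unadjusted p under 0.05, and DESeq2 called 2 and 8 genes and 0 decay factors. With the replicate number as a block, where numbers were not taken to pair libraries, 0 decay factors passed by edgeR. ZFP36L1 (-0.69 and -0.50, unadjusted p = 0.00576 and 0.0208) and ZC3H12C (0.37 and 0.45, unadjusted p = 0.0248 and 0.0436) were then under 0.05 without adjustment. The share of all genes at that limit with the block is not given.

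Next, each knockdown line was compared with shNT cells, without and with LPS. Both knockdown lines share the same shNT libraries, so their values are given side by side and are not independent of each other. In shNR4A2 cells 0 of 10 decay factors passed by edgeR without LPS, where 6.45% of all genes did, and 0 passed with LPS, where 6.96% did. At an unadjusted p under 0.05 there were 2 in each state, and DESeq2 called 0 without LPS and 1 with LPS, ZC3H12D (0.71, adjusted p = 0.0480). The percentages of all genes in this paragraph are edgeR's at an adjusted p under 0.05. Matching shares at an unadjusted p or by DESeq2 are not given, so those counts are not read as results about the decay factors. In shNR4A3 cells 3 of 10 decay factors were higher without LPS, where 3.91% of all genes were higher and 7.23% passed in either direction. With LPS 0 passed by edgeR, where 6.45% of all genes passed, and 6 had an unadjusted p under 0.05. DESeq2 called 3 with LPS (ZFP36, ZFP36L1 and ZC3H12A), again without its share of all genes. The split of all called genes in that comparison, 622 higher and 383 lower, became 476 and 455 with scaling by total counts alone.

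The 3 genes higher in unstimulated shNR4A3 cells were ZFP36, ZFP36L2 and ZC3H12D, and their libraries did not overlap those of shNT cells. The level of ZFP36, given above for each library, was 40.7 ± 4.90 RPKM in shNT, 47.9 ± 4.03 in shNR4A2 and 53.5 ± 0.69 in shNR4A3 control cells. The log2 fold change against shNT was 0.39 ± 0.10 in shNR4A3 cells (adjusted p = 0.0265) and 0.24 ± 0.11 in shNR4A2 cells (adjusted p = 0.251). The call in shNR4A3 cells was kept only when shNT control replicate 2 was left out among the 6 repeats without a library (adjusted p up to 0.122). With LPS the values were 0.44 ± 0.12 (adjusted p = 0.0539) in shNR4A3 cells, again without overlap, and 0.12 ± 0.15 (adjusted p = 0.689) in shNR4A2 cells.

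ZFP36L2 was at 128 ± 6.57, 146 ± 9.03 and 165 ± 5.69 RPKM in shNT, shNR4A2 and shNR4A3 control cells. Against shNT the log2 fold change was 0.37 ± 0.08 in shNR4A3 cells (adjusted p = 0.0135) and 0.19 ± 0.09 in shNR4A2 cells (adjusted p = 0.244). Its call was lost without shNT control replicate 2 (adjusted p = 0.0634) or shNR4A3 control replicate 1 (adjusted p = 0.0533). ZC3H12D was at 0.795, 1.05 and 1.10 RPKM in shNT control libraries, at 1.24, 1.52 and 1.04 in shNR4A2 and at 1.43, 1.54 and 1.56 in shNR4A3. It was higher in shNR4A3 cells (0.62 ± 0.16, adjusted p = 0.0325), a call kept only when shNT control replicate 3 was left out (otherwise adjusted p from 0.0537 to 0.121). In 1 fit over all 18 libraries none of the 3 calls held, with adjusted p of 0.106, 0.131 and 0.0859 for ZFP36, ZFP36L2 and ZC3H12D.

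Libraries with the same replicate number deviated together in these comparisons, and fits with the replicate number as a block called more genes. In shNR4A2 cells without LPS, 23.6% of all genes then passed, and 4 decay factors: ZFP36 (0.24, adjusted p = 0.0152), ZFP36L1 (0.53, adjusted p = 0.00673) and ZFP36L2 (0.19, adjusted p = 0.0163) were higher, and RC3H2 was lower (-0.33, adjusted p = 0.00923). In shNR4A2 cells with LPS, 28.1% of all genes passed, and ZFP36L2 (0.31), ZC3H12C (0.26) and ZC3H12D (0.69) were higher and RC3H2 lower (-0.30), with adjusted p from 2.88e-05 to 0.00223. In shNR4A3 cells without LPS the same 3 genes were called, with 14.8% of all genes. In shNR4A3 cells with LPS, 21.8% of all genes passed, and ZFP36 (0.44), ZFP36L2 (0.27), ZC3H12A (0.26) and ZC3H12D (0.43) were higher and ZFP36L1 lower (-0.63), with adjusted p from 0.000197 to 0.0188.

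**Figure D4:**
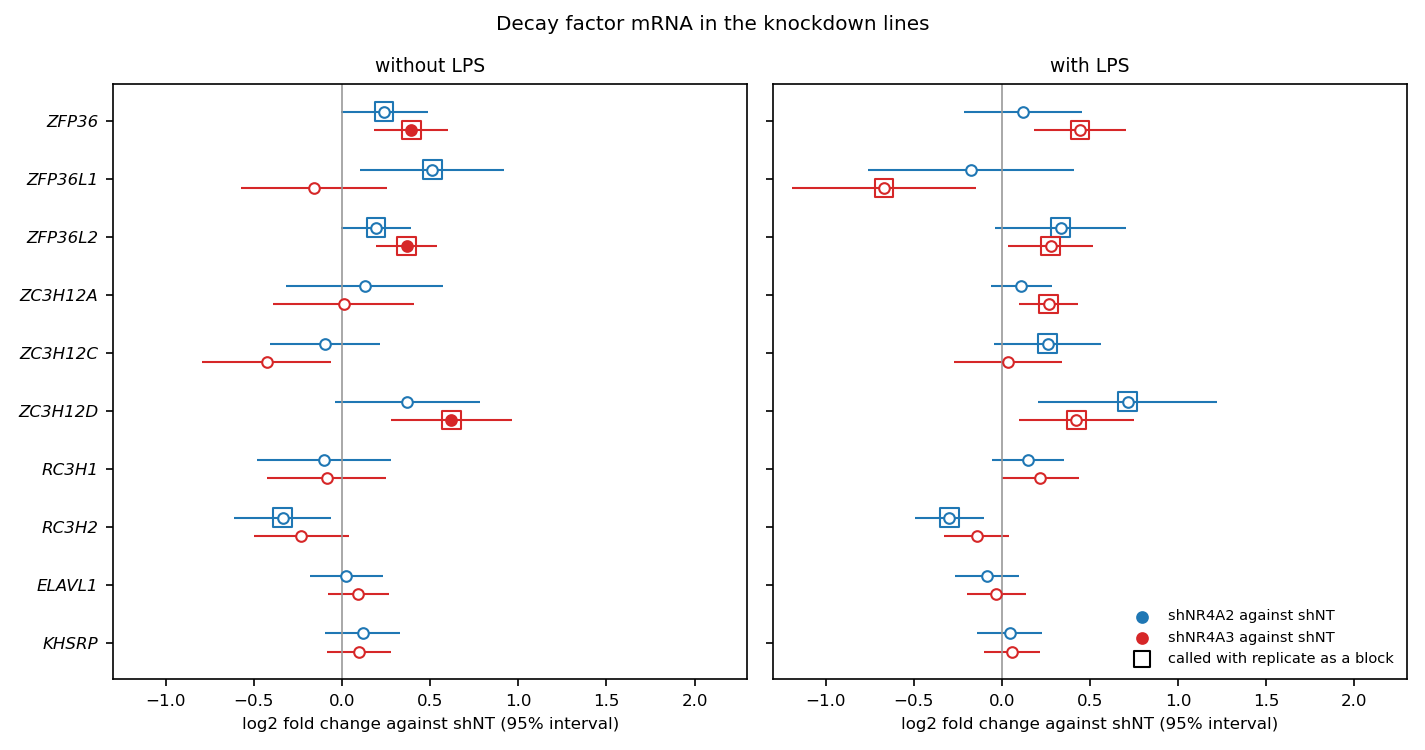
Log2 fold change of each decay factor in shNR4A2 and shNR4A3 cells against shNT cells, with its 95% interval, without LPS (left) and with LPS (right). Filled points passed the edgeR test, open points did not, and squares mark those that passed with the replicate number as a block. The values lie between -0.67 and 0.71, and the 3 filled points are ZFP36, ZFP36L2 and ZC3H12D in shNR4A3 cells without LPS.

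Between the knockdown lines, 1 decay factor differed without LPS. ZFP36L1 was at 3.52, 3.10 and 3.15 RPKM in shNR4A2 control libraries and at 2.37, 1.95 and 1.84 in shNR4A3 control libraries. The groups did not overlap, and the log2 fold change of shNR4A2 against shNR4A3 was 0.67 ± 0.15 (edgeR, adjusted p = 0.0263), in a comparison in which 3.08% of all genes passed. The call was lost in 1 fit over all 18 libraries (adjusted p = 0.160) and without shNR4A2 control replicate 1 or 3 or shNR4A3 control replicate 2 or 3 (adjusted p from 0.0587 to 0.133). With the replicate block it was kept, against 11.6% of all genes. With LPS 0 of 10 passed by edgeR, where 2.33% of all genes did, and 0 passed by DESeq2. With LPS 1 had an unadjusted p under 0.05, and the share of all genes at that limit is not given. With the replicate block 23.6% of all genes passed there, and ZFP36 (-0.33) and ZC3H12A (-0.15) were lower in shNR4A2 than in shNR4A3 cells, and ZFP36L1 (0.48) and ZC3H12C (0.23) higher, with adjusted p from 0.0011 to 0.0445.

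The share of ZFP36 in its family was compared between the lines in each state, and a difference between the states was not tested. Without LPS the shares overlapped between all lines. With LPS they were 60.4%, 58.9% and 60.7% in shNR4A2 libraries, 61.8%, 63.3% and 62.7% in shNT libraries and 65.3%, 66.8% and 67.0% in shNR4A3 libraries. None of the 3 lines overlapped another. The mean was 3.75 percentage points higher in shNR4A3 than in shNT cells and lower in shNR4A2 than in shNT cells (-2.64 points), each with p = 0.1 in the exact permutation test, the smallest possible. Without replicate 2 the difference of shNR4A2 from shNT cells was -1.73 points.

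The lines also differed in monocytic genes. Of 9 markers of the line, 3 were higher in shNR4A2 cells without LPS and 2 with LPS, and 5 and 4 were higher in shNR4A3 cells, with 0 lower. These are 33.3%, 22.2%, 55.6% and 44.4% of the list, where 6.45%, 6.96%, 7.23% and 6.45% of all genes passed. Fitted with the replicate block, 6 and 5 were higher in shNR4A2 cells and 5 and 5 in shNR4A3 cells, and 1 was lower in shNR4A2 cells in each state (ELANE) and 1 in shNR4A3 cells with LPS (FCGR1A), with 23.6%, 28.1%, 14.8% and 21.8% of all genes called. LYZ (lysozyme) was at 48.8 ± 2.11 RPKM in shNT, 156 ± 31.2 in shNR4A2 and 233 ± 52.0 in shNR4A3 control cells, and was higher in the knockdown lines by 1.68 (adjusted p = 6.22e-05) and 2.25 (adjusted p = 6.72e-07) on the log2 scale. CSF1R, the receptor for the macrophage growth factor, was higher by 0.77 (adjusted p = 0.00495) and 1.02 (adjusted p = 0.000205). Their part in the differences of the decay factors between lines was not tested. Of 8 markers of other cell types, CD3E, EPCAM, HBB and PPBP had at most 5 counts in any library. PECAM1, an adhesion molecule of endothelial cells that monocytes also express, was the most abundant of the 8 at 44.1 ± 7.46 RPKM in shNT, 68.1 ± 5.11 in shNR4A2 and 54.0 ± 1.99 in shNR4A3 control cells. It was higher in shNR4A2 than in shNT cells without LPS (0.63 ± 0.12, adjusted p = 0.00936) and with LPS (0.70 ± 0.13, adjusted p = 0.0127), without overlap, and in shNR4A3 cells it did not pass (0.29 and 0.36, adjusted p = 0.126 and 0.0703). With the replicate block it passed there too (adjusted p = 0.0258 and 0.00148). The part of PECAM1 in the differences of the decay factors was not tested.

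The mRNAs on which the decay factors act were examined as a list of 23 cytokine and related targets, of which 18 passed the filter on low counts in the LPS comparisons. Of these, 17 (94.4%) rose with LPS in each line and 0 fell, where 24.9%, 19.3% and 28.1% of all genes passed in either direction in shNT, shNR4A2 and shNR4A3 cells. The median log2 fold change was 6.90, 7.16 and 7.33 in shNT, shNR4A2 and shNR4A3 cells, or 6.26 and 6.90 in the first 2 with IL6 at its lower bound. In shNR4A3 cells IL6 had 1 count over the control libraries and was not set at a bound, so 7.33 uses its fitted change. TNF was at 18.5, 18.9 and 12.5 RPKM in shNT control libraries and at 657, 619 and 597 with LPS. IL6 had 0 counts in the 3 shNT control libraries and 43, 15 and 29 with LPS, at least 30.4-fold higher against a floor of 3 counts over the group, which covers counting error only. CXCL3, a neutrophil chemokine, had 7, 1 and 6 counts in those control libraries and was at 61.4, 46.2 and 65.0 RPKM with LPS. The called genes with the largest fitted changes in shNT cells were CXCL3 (9.11 on the log2 scale), IL12B (8.91), a subunit of IL12 with 7 counts over the control libraries, and CXCL2 (8.35), another neutrophil chemokine. The fitted change of CXCL3 was 9.69 in shNR4A2 and 9.40 in shNR4A3 cells, and that of CXCL2 8.40 and 8.41. IL1B, an inflammatory cytokine, rose by 8.45 in shNR4A3 cells. IL6 had 0 counts in the shNR4A2 control libraries as well, and was at least 109.6-fold higher with LPS against the same floor. VEGFA did not pass in any line, although with the replicate block it rose in shNR4A3 cells (0.42, adjusted p = 0.000868).

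Few targets passed between the lines. Against shNT cells, 0 of 15 passed in shNR4A2 cells without LPS and 1 of 18 with LPS, and 2 of 15 and 2 of 19 in shNR4A3 cells. Between the knockdown lines 3 of 15 were higher in shNR4A2 cells without LPS, and 0 of 19 passed with LPS. The shares of the list that passed against shNT were 0%, 5.56%, 13.3% and 10.5% in that order, where 6.45%, 6.96%, 7.23% and 6.45% of all genes did, and between the knockdown lines 20% passed without LPS against 3.08% of all genes. IL6 with LPS was at 1.07, 0.373 and 0.686 RPKM in shNT, 3.00, 1.56 and 2.35 in shNR4A2 and 4.01, 1.44 and 2.16 in shNR4A3 libraries. It was higher in both knockdown lines, by 1.69 ± 0.37 (adjusted p = 0.0272) and 1.83 ± 0.43 (adjusted p = 0.0343) on the log2 scale, in calls that were each lost without shNT LPS replicate 2 or 3 or LPS replicate 1 of the knockdown line, and for shNR4A3 also without its LPS replicate 3 (adjusted p up to 0.116). LIF, a cytokine of the IL6 family, was lower with LPS in shNR4A3 cells (-1.32 ± 0.19, adjusted p = 0.00411). Without LPS, CCL2 (-1.56 ± 0.25, adjusted p = 0.00181) and TNF (-1.02 ± 0.21, adjusted p = 0.0097) were lower in shNR4A3 cells. The TNF call was lost without shNT control replicate 2 (adjusted p = 0.0547). The 3 targets higher in shNR4A2 than in shNR4A3 cells without LPS were CCL2 (1.31 ± 0.22, adjusted p = 0.00501), TNF (1.17 ± 0.24, adjusted p = 0.0208) and IL1B (0.80 ± 0.13, adjusted p = 0.0043), in a comparison that uses the same shNR4A3 libraries. IL1B was at 9.10, 7.24 and 8.24 RPKM in shNR4A2 and at 4.76, 4.57 and 4.82 in shNR4A3 control libraries, without overlap. The call of CCL2 was lost in 1 fit over all 18 libraries (adjusted p = 0.0745) and that of TNF without shNR4A3 control replicate 1 (adjusted p = 0.0688). With the replicate number as a block every target called between lines without it was called again, and more passed. In shNR4A2 against shNT cells 2 were then higher and 2 lower without LPS, and 8 and 4 with LPS. In shNR4A3 against shNT cells 0 and 3 passed without LPS and 9 and 2 with LPS, and in shNR4A2 against shNR4A3 cells 5 and 0, and 4 and 3. Of all genes 23.6%, 28.1%, 14.8%, 21.8%, 11.6% and 23.6% passed with the block in these 6 comparisons, in the same order.

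Decay factors act through general enzymes, and 37 of these were examined as decay machinery. With LPS 5 rose and 3 fell in shNT cells, 4 and 2 in shNR4A2 cells and 7 and 4 in shNR4A3 cells, with medians of -0.0039, -0.04 and -0.05. These are 21.6%, 16.2% and 29.7% of the list, near the 24.9%, 19.3% and 28.1% of all genes that passed. In shNR4A3 cells 10 rose and 8 fell with the replicate block, against 39.4% of all genes. BTG2, an adaptor that links RNA-binding proteins to the CCR4-NOT deadenylase, was at 9.56, 9.35 and 8.12 RPKM in shNT control libraries and at 396, 422 and 464 with LPS (47.5-fold, adjusted p = 2.17e-13). Its relative BTG1 rose 2.47-fold, and DCP1B, a cofactor of decapping, fell 2.09-fold in shNT cells. In shNR4A2 and shNR4A3 cells the same 3 genes had the largest called changes, with BTG2 40.1- and 48.1-fold higher, BTG1 2.59- and 3.08-fold higher and DCP1B 2.47- and 2.59-fold lower.

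Between the lines, most of the decay machinery genes that passed were lower in shNR4A2 cells. Against shNT cells 2 of 37 were higher (BTG1 and BTG2) and 4 lower (CNOT6, CNOT6L, CNOT11 and DCP2) without LPS, with a median of -0.04. With LPS 1 was higher (BTG2) and 4 lower (CNOT6, CNOT6L, CNOT7 and CNOT11), with a median of -0.09. The CNOT genes encode subunits of CCR4-NOT, and DCP2 is the decapping enzyme. In shNR4A3 cells BTG2 was the 1 gene that passed in each state, with 0 lower. Against shNR4A3 cells 0 were higher and 2 lower in shNR4A2 cells in each state, CNOT6 and CNOT11. The shares of the list that passed were 16.2% and 13.5% in shNR4A2 against shNT cells without and with LPS, where 6.45% and 6.96% of all genes did, 2.7% in each state in shNR4A3 against shNT cells (7.23% and 6.45%) and 5.41% in each state between the knockdown lines (3.08% and 2.33%). BTG2 was higher in shNR4A2 and shNR4A3 cells by 0.93 and 0.65 without LPS and by 0.69 and 0.67 with LPS on the log2 scale (adjusted p from 0.00085 to 0.00407). The lower level of DCP2 (-0.67 ± 0.17, adjusted p = 0.0411) was not called with scaling by total counts alone (adjusted p = 0.0579) or without shNT control replicate 1 or 3 or shNR4A2 control replicate 1 or 2 (adjusted p from 0.0579 to 0.148). Every one of these calls was kept with the replicate block. In shNR4A2 against shNT cells 3 were then higher and 11 lower without LPS and 3 and 10 with LPS, in shNR4A3 against shNT cells 2 and 2, and 2 and 4, and in shNR4A2 against shNR4A3 cells 2 and 6, and 1 and 10. The shares of all genes with the block were those given for the targets, from 11.6% to 28.1%.

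CNOT11 was lower in shNR4A2 cells than in either of the other lines. It was at 25.7, 24.3 and 24.2 RPKM in shNT, 15.3, 16.4 and 13.8 in shNR4A2 and 29.1, 32.9 and 29.4 in shNR4A3 control libraries. No shNR4A2 library overlapped either of the other lines. It was lower in shNR4A2 than in shNT cells without LPS (-0.70 ± 0.10, adjusted p = 0.00207) and with LPS (-0.91 ± 0.09, adjusted p = 0.00106). Against shNR4A3 the difference was -1.001 ± 0.11 (adjusted p = 0.00028) and -1.07 ± 0.09 (adjusted p = 0.000957). In shNR4A3 cells against shNT cells CNOT11 did not pass without LPS (0.30 ± 0.09, adjusted p = 0.0565), where the groups did not overlap, or with LPS (0.16 ± 0.07, adjusted p = 0.237). CNOT6, a deadenylase subunit, was lower in shNR4A2 than in shNT cells with LPS (-0.74 ± 0.10, adjusted p = 0.00282). Against shNR4A3 it was lower without LPS (-0.53 ± 0.11, adjusted p = 0.0232) and with LPS (-0.70 ± 0.09, adjusted p = 0.00862), in calls lost without shNR4A3 control replicate 2 or 3 (adjusted p = 0.0843 and 0.0958) and without shNR4A3 LPS replicate 3 (adjusted p = 0.054).

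The 9 signalling regulators are kinases, phosphatases, the protease MALT1, which cleaves ZC3H12A, and the ubiquitin ligase subunit BTRC. With LPS 2 rose (DUSP1 and PPP2CA) and 1 fell (MAPK14) in each line, with medians of -0.0015, -0.04 and 0.07. The 3 genes are 33.3% of the list, compared with 24.9%, 19.3% and 28.1% of all genes. DUSP1, the phosphatase that switches off p38, rose from 1.92, 1.22 and 1.10 RPKM to 16.9, 13.6 and 9.45 in shNT libraries (9.38-fold, adjusted p = 1.78e-07). PPP2CA, the catalytic subunit of the phosphatase that dephosphorylates ZFP36, rose 1.47-fold, and MAPK14 (p38α), which acts upstream of the kinase for ZFP36, fell 1.47-fold in shNT cells. Between the lines 0 of 9 passed without a block for the replicate number, whereas with the block some passed in 5 of the 6 comparisons. In shNR4A2 against shNT cells 2 were then higher and 1 lower without LPS, and 4 and 2 with LPS. In shNR4A3 against shNT cells 2 and 0 passed without LPS and 4 and 2 with LPS. Of all genes 23.6%, 28.1%, 14.8% and 21.8% passed in these 4 fits. MAPKAPK2, the kinase that phosphorylates ZFP36, was at 29.5, 27.2 and 21.9 RPKM in shNT, 37.8, 37.2 and 28.8 in shNR4A2 and 32.3, 35.6 and 30.9 in shNR4A3 control libraries. In each replicate number it was lowest in shNT cells. With the block it was higher in shNR4A2 and shNR4A3 cells by 0.41 (adjusted p = 0.000363) and 0.33 (adjusted p = 0.0145) without LPS, and by 0.47 (adjusted p = 2.21e-07) and 0.39 (adjusted p = 0.000327) with LPS. DUSP1 with LPS was at 28.4, 21.1 and 18.9 RPKM in shNR4A2 and at 24.7, 16.1 and 16.03 in shNR4A3 libraries, and with the block it was higher than in shNT cells by 0.79 (adjusted p = 1.02e-10) and 0.52 (adjusted p = 0.00148). In shNR4A2 against shNR4A3 cells DUSP1 with LPS (0.28, adjusted p = 0.0115) was the 1 regulator that passed with the block.

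Of 12 partner RNA binders, 10 passed the filter on low counts. With LPS 2 rose and 1 fell in shNT cells, 2 rose in shNR4A2 cells and 3 in shNR4A3 cells, with medians of 0.07, 0.08 and 0.14. These are 30%, 20% and 30% of the 10, near the 24.9%, 19.3% and 28.1% of all genes. With the replicate block N4BP1 was also lower in shNR4A2 cells (-0.35, adjusted p = 0.0426). ARID5A, which protects IL6 mRNA from ZC3H12A, rose 2.05-fold in shNT cells (adjusted p = 0.000779). In the knockdown lines it rose by 0.78 and 0.44 on the log2 scale, with overlapping groups, in calls that were lost with scaling by total counts alone (adjusted p = 0.0791 and 0.214) and without any of 4 of the 6 libraries in each line (control replicate 1 or 3, LPS replicate 1 or 2, adjusted p up to 0.13). YBX1, an mRNA packaging protein, passed in each line (0.30, 0.45 and 0.34) and in none with that scaling, and in each knockdown line its call was lost without any of 4 of the 6 libraries (adjusted p up to 0.093). These were control replicate 1, 2 or 3 or LPS replicate 3 in shNR4A2 cells, and control replicate 2 or 3 or LPS replicate 1 or 3 in shNR4A3 cells. CELF1, which binds GU-rich elements, had the largest called change in shNR4A3 cells (0.49 ± 0.12, adjusted p = 0.00902), lost with scaling by total counts alone (adjusted p = 0.0637). N4BP1, an endonuclease with a domain like that of ZC3H12A, fell in shNT cells (-0.39 ± 0.10, adjusted p = 0.0111), a call lost without control replicate 1 (adjusted p = 0.0693).

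Between the lines 2 partner binders passed, 1 in each of 2 comparisons, and 0 passed in the other 4. Each is 10% of the 10 tested, near the 6.96% and 7.23% of all genes that passed in those comparisons. TIA1, a translational repressor that binds AU-rich elements, was at 8.57, 8.47 and 7.63 RPKM in shNT LPS libraries and at 5.97, 6.16 and 6.56 in shNR4A2 LPS libraries. It was lower in shNR4A2 cells (-0.39 ± 0.09, adjusted p = 0.0363), in a call kept only without shNR4A2 LPS replicate 2 among the 6 repeats without a library (otherwise adjusted p from 0.0507 to 0.151). ARID5A was at 10.0, 10.5 and 7.03 RPKM in shNT control libraries and at 13.7, 15.99 and 11.9 in shNR4A3 control libraries. It was higher in shNR4A3 cells, 1.51-fold (0.59 ± 0.15, adjusted p = 0.0275). That call was lost in 1 fit over all 18 libraries (adjusted p = 0.183) and without shNT control replicate 3 or shNR4A3 control replicate 1 or 2 (adjusted p from 0.0548 to 0.1003). Neither pair of groups overlapped. Both calls were kept with the replicate block, where 1 was higher (ARID5A) and 1 lower (TIA1) in shNR4A2 against shNT cells without LPS. These and further calls came with 23.6% of all genes there, 14.8% in shNR4A3 against shNT cells without LPS and 21.8% to 28.1% with LPS. Among the further calls, CELF1 was higher in shNR4A3 than in shNT cells with LPS, and in shNR4A2 against shNR4A3 cells with LPS TIAL1 was higher and TIA1 lower.

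**Figure D5:**
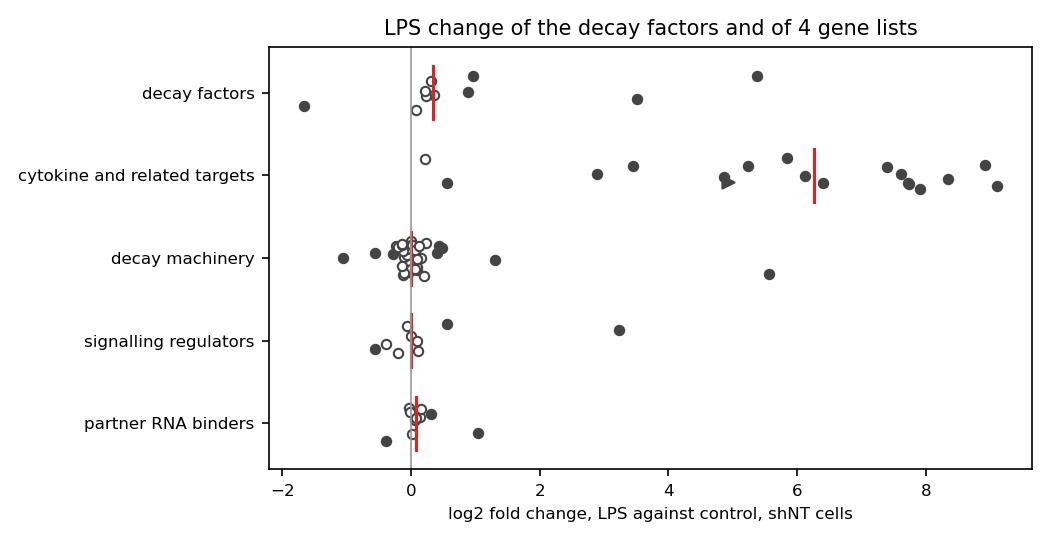
Log2 fold change with LPS in shNT cells for the 10 decay factors and 4 gene lists, with 1 point per gene and a red line at each median. Filled points passed the edgeR test, open points did not, and the triangle is IL6 at its lower bound. The decay factors range from -1.67 to 5.38, and most of the decay machinery lies near 0.

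The genes whose log2 level over the 18 libraries was most like that of the most variable decay factors were looked up among 14832 genes. ZC3H12A was closest to CCL4L2, NFKBIZ and CCL3L1 (Pearson r = 0.997 for each) and ZC3H12C to IL1A (0.998), E2F7 (0.995) and IL1B (0.995). ZFP36L2 was closest to C16orf54 (0.987), ELMSAN1 (0.986) and PCED1B (0.986). These correlations describe 18 libraries that share the LPS contrast, and CCL4L2 and CCL3L1 have near-identical copies among which reads could be split.

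RefSeq promoters, 300 bases around the start site (GRCh38.p14), were at hand for 7 of the decay factors, as 9 promoters. ZFP36L2, ZC3H12D and ELAVL1 are not among them. The NR4A response element AAAGGTCA, searched on both strands, was in 0 of the 9 and in 1.22% of 35116 promoters. The kappaB motif was in 2 of the 9, those of RC3H2 and ZC3H12C, and in 11.3% of all, and the CArG box was in 0 of the 9 and in 1.29% of all. These counts describe letters in the windows searched and say nothing of binding.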

How the data were processed

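Total RNA from 18 samples was selected for polyadenylated RNA and sequenced from both ends by a sequencing company. The submitters' processing notes name Trimmomatic 0.36, STAR 2.5.2b, featureCounts from Subread 1.5.2 and GRCh38. The counting options and strand setting are not given in the sources used here. The authors deposited raw read counts, whole numbers for each Ensembl gene, with its exon length. Groups came from the deposited sample descriptions. No pair of libraries held identical counts, and 0 columns belonged to other samples.

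Counts were tested in R 4.3.3 with edgeR 4.0.16 (filterByExpr, TMM, quasi-likelihood F test) on the 6 libraries of a comparison, or 12 for an interaction, with a threshold of an adjusted p of 0.05. Standard errors were worked out as the size of the log2 fold change divided by the square root of the F statistic. The 95% intervals use that value with a t quantile. Family shares were compared with exact permutation tests (scipy 1.17.1). P-values rest on 3 libraries per group. In edgeR the spread of each gene is drawn towards that of all genes tested. Its p-values, with and without the block, thus do not measure the spread of a gene's own libraries alone. Alternatives were DESeq2 1.42.0, DESeq2's size factors (RLE), scaling by total counts alone, no filter, a block for the replicate number, a single fit of all 18 libraries, shares of counts, and each library left out.

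Replicate numbers were taken to pair libraries where the correlation of deviations passed 0.1 in all 3 replicates. It ran from 0.159 to 0.533 in the 8 comparisons that passed. LPS in shNT cells (0.0598 in replicate 2) and the interactions (0.0174 and 0.0266) did not pass.

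Simulated counts with 200 changed genes were used to test the fits. For LPS in shNT cells (15711 genes) edgeR recovered 79% of 2-fold and 95% of 4-fold changes, with 7.94% false calls. For the shNR4A2 interaction (16674 genes) it recovered 48% and 85%.

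The decay factors, the lists and the tests were chosen with earlier results of these data known. Named genes were every decay factor, the hairpin targets, the 3 genes most correlated with each decay factor that changed at least 2-fold, and, in each list and comparison, up to 3 called genes with the largest change. The markers, VEGFA, genes named for calls with the block, the other genes behind counts of decay machinery between lines, and the values of TNF and IL6 with LPS in shNT cells, were named after their values were seen. Genes overlapping on the other strand are uncertain, since strand use is unknown. Published fold changes were not used. The partner binders named for calls with the block are not all of those called, and a further one is not reported here.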

Additional observations from a re-analysis of the deposited data

Results flagged for a closer look

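The level of ZFP36L1 without LPS differed between the knockdown lines by a test of that difference itself. It was higher in shNR4A2 than in shNR4A3 cells by 0.67 ± 0.15 (SE) on the log2 scale (edgeR, adjusted p = 0.0263, 3 libraries against 3 without overlap). The call was lost in 1 fit over all 18 libraries (adjusted p = 0.160) and without shNR4A2 control replicate 1 or 3 or shNR4A3 control replicate 2 or 3 (adjusted p from 0.0587 to 0.133). Against shNT cells the log2 fold change was 0.51 ± 0.19 in shNR4A2 and -0.16 ± 0.19 in shNR4A3, and neither passed the test (adjusted p = 0.135 and 0.702). With the replicate block it passed in shNR4A2 against shNT cells (0.53, adjusted p = 0.00673) but not in shNR4A3 against shNT cells (-0.14, adjusted p = 0.505). The gene had between 171 and 612 counts per library.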

How the results depend on the processing

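With LPS, the calls of ZC3H12A, ZC3H12C, ZFP36 and ZFP36L2 held in each line under all 6 alternatives and with each of the 6 libraries left out. Over all alternatives, counts and shares stayed within 1.5-fold or 1 SD of the reported value in 271 repeats and moved further in 85. For other values the cause of a change was not tested, apart from smaller fits when a library is left out. Depth could limit what can be seen for the least abundant genes, ZC3H12D among them, which was not tested.

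Scaling by total counts alone turned the LPS change of KHSRP to -0.092, -0.21 and -0.16 (shNT, shNR4A2, shNR4A3), of ELAVL1 to -0.11 in shNR4A2 and -0.11 in shNR4A3, and of ZC3H12D to -0.033 in shNR4A3. For KHSRP in shNR4A2 cells it was -0.030 without the filter and from -0.047 to 0.089 with each library left out. Of 59 other values of decay factors, between lines and in the interactions, 23 changed sign in some alternative, by then at most 0.23 in size, and 0 were called anywhere.

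Counts of all genes called follow. LPS in shNR4A2 cells gave 3050, and 4751 with the replicate block and 4601 in 1 fit over 18 libraries. shNR4A2 against shNT without LPS gave 1019, 1611 without the filter and 3733 with the block, and with LPS 1085, 1843, 4385 and 1691 in 1 fit. shNR4A3 against shNT without LPS gave 1108 and 2267 with the block, and with LPS 1005, 1839 without the filter and 3401 with the block. shNR4A2 against shNR4A3 without LPS gave 480, 838 without the filter and 1800 with the block (302 higher and 178 lower against 942 and 858), and with LPS 362, 1102, 3666, 698 with DESeq2 and 1032 in 1 fit. The interactions gave 0, and without the filter 29 (shNR4A2) and 138 (shNR4A3), with DESeq2 2 and 8, and with the replicate block 8 and 22.

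Counts of decay factors called moved as well. With the replicate block there were 8 for LPS in shNT cells (with 32% of all genes called), where numbers were not taken to pair libraries, 4 and 4 for shNR4A2 against shNT without and with LPS, 5 for shNR4A3 against shNT with LPS, and 4 for shNR4A2 against shNR4A3 with LPS. The block changed no other call of a decay factor between lines than those given with its values. Without the filter there were 1 and 1 for shNR4A2 against shNT, 2 for shNR4A3 against shNT with LPS and 1 for shNR4A2 against shNR4A3 with LPS. DESeq2 gave 1 and 3 for shNR4A2 and shNR4A3 against shNT with LPS, and its shares of all genes there are not given. The fit over 18 libraries gave 1 for shNR4A2 against shNT with LPS, and 0 for shNR4A3 against shNT and 0 for shNR4A2 against shNR4A3 without LPS. Shares of all genes without the filter and in the fit over 18 libraries are not given either, so these counts are not read as results about the decay factors.

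With each library left out, shNR4A2 against shNT gave 517 to 1128 genes without LPS (lowest without shNT control replicate 3) and 342 to 1477 with LPS (lowest without shNT LPS replicate 2). For shNR4A3 against shNT the ranges were 649 to 975 (lowest without shNT control replicate 3) and 383 to 1693 (without shNT LPS replicate 2 and shNR4A3 LPS replicate 2). For shNR4A2 against shNR4A3 they were 249 to 470 and 94 to 217 (lowest without shNR4A3 control replicate 1 and LPS replicate 1), and for the interactions 0 to 8 and 0 to 44, above 0 only without LPS replicate 2 of the knockdown line. Decay factors called ranged from 0 to 1 in the line comparisons where they moved, but 0 to 2 for shNR4A3 against shNT without LPS. For all genes only the counts above are given, not shares, so these ranges are not read as results about the decay factors.

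As shares of counts, the LPS change in the share of ZFP36 was 32.3, 29.5 and 36.5 percentage points and that of ZC3H12A 37.8, 34.7 and 40.2 (shNT, shNR4A2, shNR4A3). With LPS the ZC3H12A share differed by 2.64 points (shNR4A3 against shNT) and -4.94 (shNR4A2 against shNR4A3). Per length these differences were 1.18 points, with overlapping groups, and -2.36 points, without overlap. With a replicate left out, the ZFP36 share changed with LPS by 34.6 to 37.4 points in shNR4A2 cells, and shNR4A2 against shNT with LPS differed by -3.24 to -1.73 points.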
